A study of Mus musculus with 46 samples.

Results

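Matrix metalloproteinases (Mmp genes), the ADAMTS proteases (Adamts genes) and their tissue inhibitors (Timp genes) were followed in MC-38 tumors under PD-1 blockade or PD-1 deletion. The members were all protein-coding genes whose mouse symbols name an Mmp, Adamts or Timp gene, which gave 45 of the 48795 genes in the table: 22 Mmp, 19 Adamts and 4 Timp genes. Mmp1a matched by name but is annotated as a polymorphic pseudogene and was left out. Bulk RNA-seq covered 46 samples in 8 groups, and the values are FPKM (fragments scaled to transcript length and to all mapped fragments). The paper gives a range of mapped reads over all samples, but the depth of each sample is unknown, so precision rests on the spread between samples. Cultured MC-38 cells, a mouse colon carcinoma line, gave 3 samples, and baseline tumors taken before treatment gave 3. Female C57BL/6NTac mice aged 8 to 10 weeks carried subcutaneous MC-38 tumors and received isotype control antibody or the PD-1 antibody muDX400 at 5 mg/kg, as 1 dose (sampled on day 4 of treatment) or 2 doses (day 8), with 5 tumors in each of these 4 groups. The PD-1cKO mice carried Pdcd1 alleles with loxP sites around exons 2 and 3 and a Rosa26-creERT2 allele, whose promoter acts in all tissues. They and their WT littermate controls both received tamoxifen at 40 mg/kg on 5 consecutive days, and 10 tumors of each were taken on day 28 by the labels and earlier by the methods. Deletion was therefore not limited to T cells, and tamoxifen was shared by both genotypes. Nothing states that the 3 cultures were independent, so p-values measure the spread between these samples.

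Secreted and membrane-bound matrix metalloproteinases cut collagens, basement membrane and other matrix proteins, and are made as inactive precursors. ADAMTS proteases carry thrombospondin repeats and act on narrower sets of substrates, such as proteoglycans, the N-terminal propeptides of collagen, or von Willebrand factor. TIMP proteins block the active site of the metalloproteinases. In tumors, fibroblasts, macrophages, neutrophils, endothelial cells and the tumor cells themselves can all make these proteins.

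Facts of the whole series bear on the values below. The 7 epithelial markers used for MC-38 summed to only 0.635 to 0.781 FPKM in the cultures, with Krt7, Krt19, Krt20 and Cdh1 under 0.1 FPKM in all 3, so cultured values could not be tied to an epithelial identity. Macrophage markers (7 genes) summed to 2.56 to 3.14 FPKM in culture and to 195 FPKM or more in every tumor. Fibroblast markers (8 genes) summed to 116 to 123 FPKM in culture, with only Lum under 0.1 FPKM in all 3 cultures. In every tumor they summed to 406 FPKM or more. Isotype control tumor 1 after 1 dose had 54.6% of its FPKM in mitochondrial genes. PD-1 Ab-treated tumor 5 after 2 doses stood apart from the other 4, with T cell markers (5 genes) summing to 30.5 FPKM against 79.8 to 129 FPKM. PD-1cKO tumors 4, 7 and 8 had the highest fibroblast marker sums (9019, 6654 and 7946 FPKM for 8 genes) and neutrophil marker sums (129, 431 and 102 FPKM for 9 genes), against at most 4529 and 27.4 FPKM in the other 7. Pdcd1 itself, counted over the whole gene, had a mean of 9.61 ± 4.5 FPKM (SD, n = 10) under the PD-1cKO label and 3.30 ± 1.5 FPKM (n = 10) in WT tumors. Only exons 2 and 3 are removed, so the gene-level value does not check the genotype labels.

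Members were first placed by their level in culture. Of the 45 genes, 19 averaged 1 FPKM or more in cultured MC-38, 8 were under 0.1 FPKM in culture and reached 0.5 FPKM in at least 1 tumor group, 7 lay between, and 11 stayed under 0.5 FPKM in all 8 groups. The highest cultured values belonged to the inhibitor Timp2 (129 ± 4.7 FPKM, SD, n = 3), the membrane-type collagenase Mmp14 (54.9 ± 1.3 FPKM), the inhibitor Timp1 (45.2 ± 1.9 FPKM) and the gelatinase Mmp2 (29.0 ± 1.4 FPKM). Mmp14 and Timp2 are known to act together in the activation of Mmp2 precursor at the cell surface. The proteoglycan-cleaving Adamts9 followed at 21.7 ± 0.625 FPKM and the gelatinase Mmp9 at 15.3 ± 0.8 FPKM. The 8 genes under 0.1 FPKM in culture were Mmp8, Mmp12, Mmp15, Mmp25, Mmp27, Adamts15, Adamts16 and Adamts17. Mmp8, the neutrophil collagenase, was listed at 0 in all 3 cultures. The 7 between were Mmp13, Mmp23, Mmp28, Adamts2, Adamts6, Adamts13 and Timp3. For a gene that is low in culture and present in tumors, expression by host cells and induction in tumor cells after implantation cannot be told apart.

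**Figure D1:**
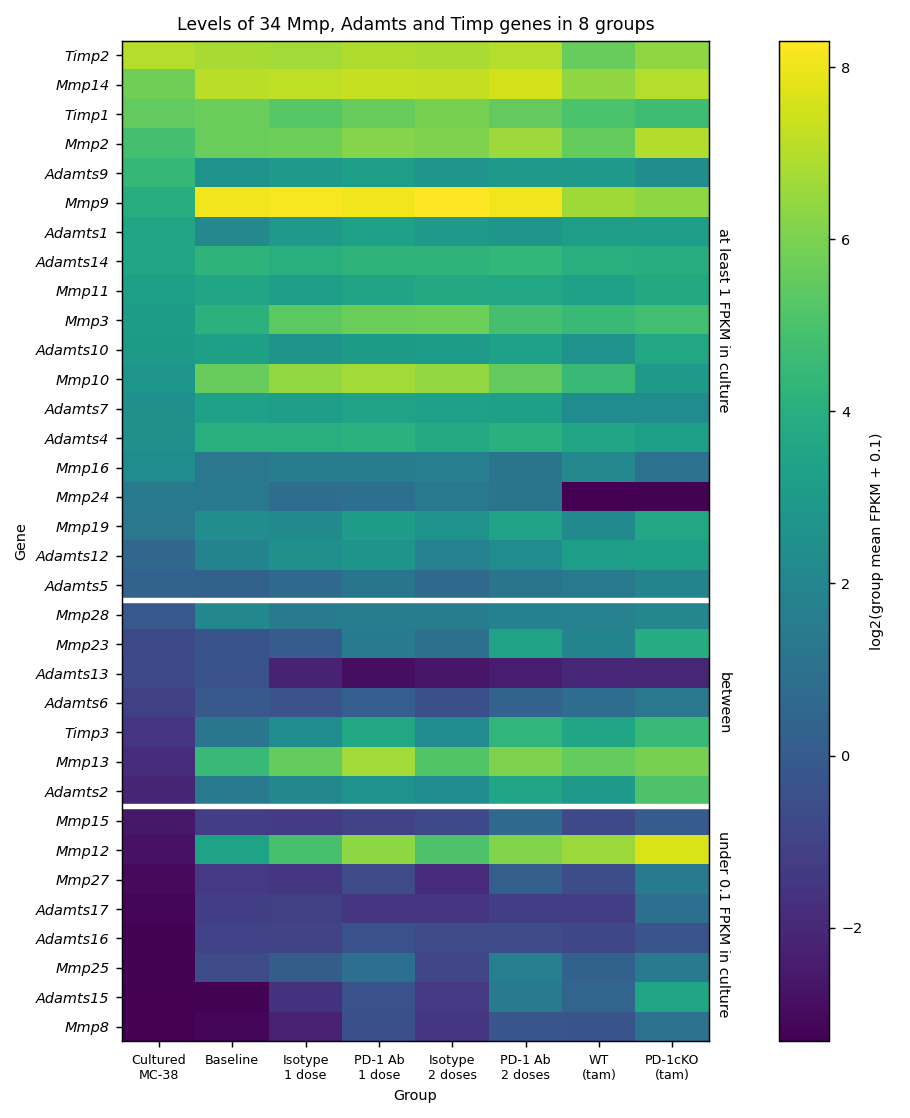
Mean level of the 34 members that reached 0.5 FPKM in any group, as log2(group mean FPKM + 0.1) by color, with genes in rows and the 8 groups in columns (tam: tamoxifen). Rows are split by the cultured level, and Mmp12, Mmp13 and Adamts2 pass from dark colors in culture to light colors in tumors, while Mmp24 is darkest in the tamoxifen-treated groups.

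Other members with measurable levels are given by the range of their group means. The stromelysin-like Mmp11 had group means between 9.16 ± 3.9 FPKM (isotype control after 1 dose, SD, n = 5) and 13.3 ± 3.3 FPKM (PD-1cKO, n = 10), and the cultures lay within that range at 9.72 ± 0.83 FPKM. The pair that cleaves cartilage oligomeric matrix protein, Adamts7 and Adamts12, differed in pattern. Adamts7 ranged from 4.97 ± 0.67 FPKM (PD-1cKO) to 10.3 ± 1.5 FPKM (PD-1 Ab after 1 dose), while Adamts12 ranged from 1.34 ± 0.089 FPKM in culture to 9.54 ± 3.1 FPKM in PD-1cKO tumors. Adamts10, which acts on microfibrils, ranged from 6.09 ± 0.99 FPKM (WT) to 12.1 ± 6.7 FPKM (PD-1cKO), and Mmp28 (epilysin) from 0.824 ± 0.081 FPKM in culture to 4.18 ± 2.3 FPKM at baseline. Lower still, Adamts6 ranged from 0.354 ± 0.064 FPKM in culture to 2.32 ± 0.83 FPKM in PD-1cKO tumors, and Adamts17 reached 1.78 ± 1.7 FPKM in PD-1cKO tumors with at most 0.366 ± 0.24 FPKM in any other group. Mmp15, a membrane-type member, was highest after 2 doses of PD-1 Ab (1.49 ± 0.90 FPKM), and Adamts16 peaked at 0.742 ± 0.37 FPKM in PD-1cKO tumors. Among proteoglycan-cleaving genes, group means were 4.40 to 11.3 FPKM for Adamts1, 5.55 to 17.1 FPKM for Adamts4 and 1.13 to 3.57 FPKM for Adamts5.

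The 11 low members are given by their highest group mean. Mmp20, the enamel protease, was listed at 0 in all 46 samples. For the others the highest group means were 0.496 FPKM for Mmp17, 0.435 FPKM for Mmp1b, 0.428 FPKM for Adamts3, 0.385 FPKM for Adamts18, 0.291 FPKM for Timp4, 0.211 FPKM for Adamts8, 0.136 FPKM for Adamts20, 0.118 FPKM for Adamts19, 0.0455 FPKM for Mmp21 and 0.0167 FPKM for Mmp7. Of the 50-base stretches in Mmp1b transcripts, 11.8% also occur in another gene, as do 8.39% of those of Mmp3 and 8.37% of those of Mmp10, so part of their reads could have been split. Mmp12 and Mmp1b overlap on opposite strands, and whether strand was used in counting is not given in the sources used here.

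In all, 9 members lie close together on chromosome 9 (chr9:7272514-7699585, GRCm38), in the order Mmp13, Mmp12, Mmp1b, Mmp3, Mmp10, Mmp8, Mmp27, Mmp20 and Mmp7. RefSeq promoters (GRCm38.p6, 250 bases before to 50 bases from the annotated start) matched 31 of the 45 members, among them all of the cluster. The AP-1 motif TGAGTCA or its reverse complement TGACTCA occurred in the promoters of 6 members, Mmp13, Mmp12, Mmp1b, Mmp3, Mmp10 and Mmp7, all in the cluster, and in 5.20% of all 32851 promoters of that length. AP-1 is the dimer of Fos and Jun proteins, a classic regulator of inducible Mmp genes. Of the 6 genes with the motif, Mmp1b and Mmp7 had highest group means of only 0.435 and 0.0167 FPKM, and their windows are not shown. The promoter windows of 4 cluster genes with the motif and 2 without it are shown because their levels are compared next. Each runs 5′ to 3′ over 170 bases, from 120 bases before the start to 50 bases from it, with AP-1 motifs and the TATA-like TATAAA or TTTATA (present in 13.6% of all promoters) in capitals, and no capitals overlap.
Mmp13, chr9:7272394-7272563, plus strand: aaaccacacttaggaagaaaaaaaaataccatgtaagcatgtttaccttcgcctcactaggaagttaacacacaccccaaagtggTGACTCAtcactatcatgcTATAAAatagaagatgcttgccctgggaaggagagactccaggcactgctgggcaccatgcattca
Mmp12, chr9:7347254-7347423, plus strand: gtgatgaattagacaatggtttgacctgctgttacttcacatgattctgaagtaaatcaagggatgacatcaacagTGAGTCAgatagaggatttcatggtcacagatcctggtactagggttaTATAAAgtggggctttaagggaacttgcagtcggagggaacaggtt
Mmp3, chr9:7445702-7445871, plus strand: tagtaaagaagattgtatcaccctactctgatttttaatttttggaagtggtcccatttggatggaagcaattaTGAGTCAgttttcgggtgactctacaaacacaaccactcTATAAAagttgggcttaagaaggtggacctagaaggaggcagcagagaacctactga
Mmp10, chr9:7502222-7502391, plus strand: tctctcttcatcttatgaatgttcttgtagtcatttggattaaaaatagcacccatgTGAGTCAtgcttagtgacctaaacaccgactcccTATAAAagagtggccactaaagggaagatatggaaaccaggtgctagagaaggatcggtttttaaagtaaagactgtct
Mmp8, chr9:7558309-7558478, plus strand: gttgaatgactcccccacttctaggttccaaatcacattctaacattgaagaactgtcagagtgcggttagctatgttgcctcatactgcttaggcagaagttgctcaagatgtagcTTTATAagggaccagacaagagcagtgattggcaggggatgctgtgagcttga
Mmp27, chr9:7571276-7571445, plus strand: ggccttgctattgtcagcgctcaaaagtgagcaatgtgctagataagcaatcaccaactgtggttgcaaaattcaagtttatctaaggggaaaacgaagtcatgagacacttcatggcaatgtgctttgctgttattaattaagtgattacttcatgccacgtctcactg
The AP-1 match began 35 bases before the start in Mmp13, 44 in Mmp12, 46 in Mmp3 and 63 in Mmp10. Mmp8 held only the TATA-like letters and Mmp27 neither, which says only that these letters are not in this window. Mmp12 has 2 annotated starts, and the motif lies before the downstream one.

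Levels along the cluster were uneven. In isotype control tumors after 2 doses, Mmp10 (stromelysin) had a mean of 85.4 ± 24 FPKM (SD, n = 5), Mmp3 (stromelysin) 52.7 ± 12 FPKM, Mmp13 (collagenase) 35.6 ± 9.1 FPKM and Mmp12 (macrophage elastase) 32.9 ± 4.0 FPKM. The neighbors Mmp8 (0.261 ± 0.19 FPKM) and Mmp27 (0.168 ± 0.091 FPKM) were far lower, and Mmp20 was at 0. Mmp1b and Mmp7, which hold the AP-1 motif, stayed under 0.5 FPKM in every group. Genes with the motif were thus found at high and at low levels. In culture, Mmp3 (8.61 FPKM) and Mmp10 (6.89 FPKM) were already present, whereas Mmp13 and Mmp12 were at 0.178 and 0.0497 FPKM.

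**Figure D2:**
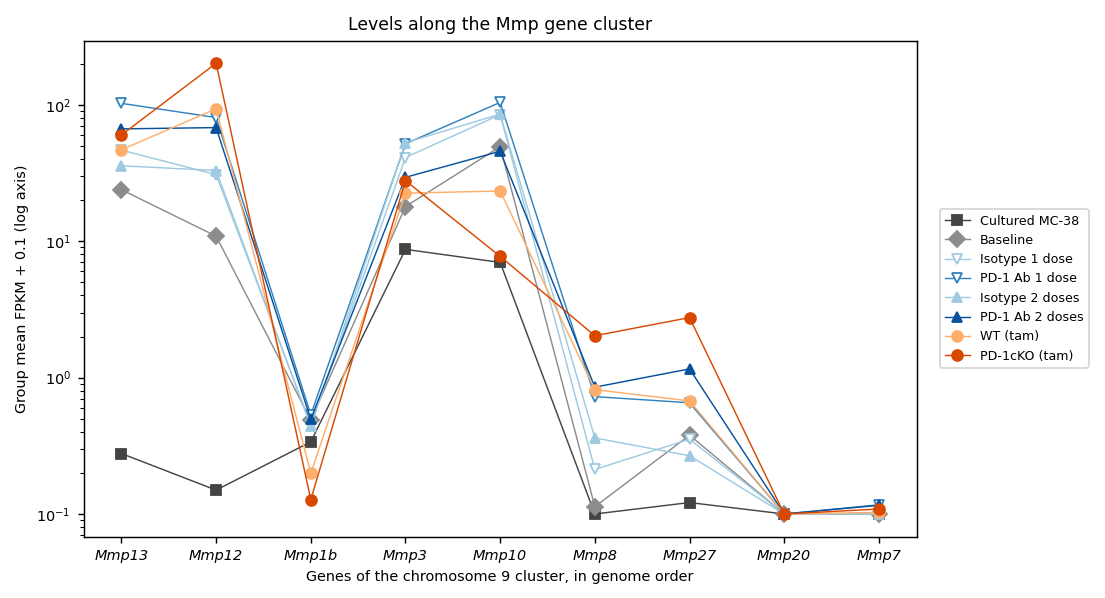
Group mean FPKM + 0.1 on a log axis for the 9 cluster genes in genome order, 1 line per group (tam: tamoxifen). The cultures (dark squares) lie below the tumors at Mmp13 and Mmp12 and closer to them at Mmp3, and PD-1cKO tumors are highest at Mmp12, Mmp8 and Mmp27 but lower than the other tumor groups at Mmp10.

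The comparison of isotype control tumors after 2 doses with cultured MC-38 asked which members tumor growth in the mouse added. Of 27 members tested, 14 rose and 1 fell, where 21.3% of all 15199 tested genes were called (14.2% higher and 7.09% lower). A gene counted as called when its Benjamini-Hochberg adjusted p from limma, on log2(FPKM + 0.1), was below 0.01 and the groups differed 2-fold or more. In all, 5 of the 15 called members (Mmp12, Mmp13, Adamts2, Adamts16 and Timp3) passed the filter of 0.5 FPKM only through the tumors. They are higher there, so their differences are given as a description. Mmp9 read 15.3, 16.1 and 14.5 FPKM in the cultures and 309, 295, 324, 354 and 300 FPKM in the tumors, a log2 change of 4.36 ± 0.08 (SE). Mmp12 read 0.0859, 0.0315 and 0.0317 FPKM in culture and 33.7, 39.5, 30.6, 31.1 and 29.5 FPKM in the tumors (7.79 ± 0.16), and Mmp13 changed by 6.98 ± 0.19 on the log2 scale. No tumor overlapped a culture for these 3 genes, nor for most of the 27 members tested, and the share over all genes was not computed. Adamts2, which removes the N-propeptide of fibrillar procollagens, changed by 4.47 ± 0.18, Timp3 by 3.80 ± 0.26, Mmp10 by 3.57 ± 0.21 and Mmp3 by 2.56 ± 0.20. The other members that rose were Adamts16 (2.38 ± 0.51), Mmp23 (1.71 ± 0.24), Mmp28 (1.70 ± 0.18), Mmp14 (1.43 ± 0.10), Mmp19 (1.32 ± 0.11), Adamts4 (1.25 ± 0.21) and Mmp2 (1.17 ± 0.16). Adamts9 fell by 1.73 on the log2 scale, from 21.9, 22.2 and 21.0 FPKM to 4.09 to 8.23 FPKM. Timp2 (a log2 difference of -0.18 ± 0.12) and Timp1 (0.38 ± 0.18) did not pass, so Timp3 was the inhibitor called in this comparison. Of 9 activators and regulators tested, 6 rose with the tumors, led by Plau (urokinase, 5.79 ± 0.17) and Lcn2 (which binds Mmp9, 2.59 ± 0.43). Of 13 substrates 8 rose, among them Col1a2 (7.34 ± 0.31) and Col1a1 (6.11 ± 0.19), and of 9 AP-1 and ETS factors 3 rose, Fos (2.13 ± 0.45), Junb (1.60 ± 0.16) and Jund (1.30 ± 0.18). Markers of macrophages (7 of 7), fibroblasts (7 of 8) and T cells (5 of 5) rose in the same comparison, and their part in the members' change was not tested.

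Baseline tumors against the same 3 cultures gave 11 members higher and 3 lower of 28 tested, where 15.8% of all 15217 tested genes were called (12.1% higher and 3.75% lower). The comparison shares its cultures with the one above. Of its called members, Mmp12, Mmp13, Adamts2 and Timp3 passed the filter only through the tumors, so their differences are given as a description. Mmp13 (6.39 ± 0.22), Mmp12 (6.11 ± 0.35), Mmp9 (4.07 ± 0.19) and Adamts2 (3.55 ± 0.24) had the largest log2 changes, and Adamts9 (-1.80 ± 0.08), Adamts1 (-1.36 ± 0.14) and Mmp16 (-1.06 ± 0.12) fell. Mmp3 read 6.4, 6.23 and 41.0 FPKM in baseline tumors, just below its cultured values in 2 tumors and above them in 1, and was not called (0.45 ± 0.65). Between isotype control tumors after 2 doses and baseline tumors, 0 of 29 members were called with limma, where 0.595% of all 14967 tested genes were called. At an unadjusted p under 0.05 by limma there were 9 members, and the share over all genes at that limit is not given here. The nearest member was Mmp12, at 5.83, 12.9 and 13.6 FPKM in baseline tumors and 29.5 to 39.5 FPKM in the isotype control tumors, with no overlap (1.69 ± 0.25, adjusted p = 0.0102 by limma). Adamts13, the von Willebrand factor protease, pointed the other way, with means of 0.667 ± 0.15 FPKM (n = 3) at baseline and 0.0615 ± 0.039 FPKM (n = 5) later (-2.26 ± 0.41, adjusted p = 0.0198 by limma). It passed the filter only through the baseline tumors, where it is higher, so this difference is given as a description.

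After 2 doses of PD-1 Ab, 4 members rose against isotype control and none fell of 32 tested, where 5.30% of all 15062 tested genes were called (5.03% higher and 0.272% lower). The 4 were Mmp25, Mmp27, Adamts15 and Timp3, and apart from Timp3 they passed the filter only through the PD-1 Ab-treated tumors, where they are higher. Mmp25 was the only member called with no filter, so the differences of Mmp27 and Adamts15 are given as a description. Mmp25 (chr17:23628311-23645277), a membrane-type metalloproteinase known from leukocytes, read 2.79, 3.69, 3.62, 3.84 and 1.88 FPKM in PD-1 Ab-treated tumors and 0.372, 0.508, 0.231, 0.592 and 0.475 FPKM in isotype controls. All 5 treated tumors were above all controls, with a log2 change of 2.61 ± 0.27 (adjusted p = 0.00081 by limma). Timp3 (chr10:86300372-86349506), the inhibitor that binds to the matrix, read 20.1, 32, 20.8, 21.8 and 6.32 FPKM against 6.05, 5.10, 2.94, 5.28 and 4.24 FPKM. The groups did not overlap, but tumor 5 lay just above the highest control, and the log2 change was 1.94 ± 0.36 (adjusted p = 0.00429 by limma).

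Adamts15 (chr9:30899155-30922452), which cleaves proteoglycans, read 2.03, 4.16, 3.37, 3.46 and 0.407 FPKM in PD-1 Ab-treated tumors and 0.381, 0.376, 0.198, 0.253 and 0.189 FPKM in isotype controls (2.60 ± 0.52, adjusted p = 0.00575 by limma). Here too tumor 5 sat at the edge of the controls. Mmp27 (chr9:7571396-7581885) read 1.01, 1.71, 1.36, 0.807 and 0.401 FPKM against 0.176, 0.155, 0.0470, 0.157 and 0.303 FPKM (2.06 ± 0.40, adjusted p = 0.00544 by limma), without overlap but at low levels. Mmp23, a small transmembrane member, read 9.01, 16.8, 13.4, 10.1 and 1.5 FPKM against 1.37 to 2.21 FPKM, and the single low tumor went with an adjusted p of 0.0157 by limma (2.08 ± 0.52), short of the call. Without PD-1 Ab-treated tumor 5, Mmp23 reached 2.66 ± 0.20 and 9 members were called: Mmp15, Mmp17, Mmp23, Mmp25, Mmp27, Adamts2, Adamts15 and Timp3 higher, and Mmp10 lower. Of these, Mmp15, Mmp17, Mmp25, Mmp27 and Adamts15 passed the filter only through the PD-1 Ab-treated tumors, where they are higher. Their calls without tumor 5 are given as a description, and Mmp17 did not reach the filter with all tumors. Over all genes 10.1% of 15157 were called without tumor 5, so calls were more frequent across the table and not only among the members. Leaving out any other single tumor left between 1 and 4 calls, and Mmp25 was called in all 19 settings run.

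The stromelysins Mmp10 and Mmp3 had lower values after 2 doses of PD-1 Ab but did not pass, while Mmp11 hardly differed (means of 12.6 against 12.7 FPKM). Mmp10 (chr9:7502352-7510240), which cleaves many matrix proteins and activates other metalloproteinases, read 38.9, 44.9, 36.5, 42.8 and 64.7 FPKM in PD-1 Ab-treated tumors and 94.2, 119, 75.2, 54.5 and 84.4 FPKM in isotype controls (-0.89 ± 0.20, adjusted p = 0.0110 by limma). In all, 4 treated tumors were below every control. Mmp3 read 20.8, 44.0, 35.7, 23.5 and 22.5 FPKM against 53.7, 56.5, 64.1, 31.5 and 57.6 FPKM (-0.87 ± 0.24, adjusted p = 0.0230 by limma), with overlap at the isotype control tumor of 31.5 FPKM. The median log2 difference was 0.32 over the 32 members and -0.04 over all tested genes. Among the abundant members, Mmp9 (-0.26 ± 0.14), Mmp14 (0.33 ± 0.12), Mmp2 (0.52 ± 0.19), Timp2 (0.19 ± 0.12) and Timp1 (-0.38 ± 0.16) did not pass.

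Cell-type markers differed between the same tumors. Macrophage markers rose for 6 of 7 genes and T cell markers for 5 of 5, fibroblast markers passed for 0 of 8, and of 5 neutrophil markers tested, 1 rose (Csf3r) and 1 fell (S100a8). Macrophage sums ranged from 1489 to 3106 FPKM in PD-1 Ab-treated tumors and from 795 to 1268 FPKM in isotype controls, and T cell sums from 30.5 to 129 against 6.79 to 14.8 FPKM. Adipose markers (4 genes) summed to 66.5 to 121 FPKM in PD-1 Ab-treated tumors 1 to 4, to 5.05 FPKM in tumor 5, and to 1.36 to 15.1 FPKM in the controls. Endothelial markers (5 genes, of which Pecam1 was called) summed to 54.1 to 81.5 FPKM in tumors 1 to 4, to 24.0 FPKM in tumor 5, and to 18.1 to 23.9 FPKM in the controls. Tumor 5 was the lowest of the treated tumors in 7 of the 9 marker lists (T cell, adipose, endothelial, macrophage, fibroblast, neutrophil and epithelial) and also in Mmp23, Adamts15 and Timp3. It was the highest in skeletal muscle markers, at 69.0 FPKM for 5 genes against 2.17 to 8.98 FPKM. In the cultures all T cell and adipose markers were under 0.1 FPKM. Their part in the result was not tested, and in bulk tissue more cells of a type and more RNA per cell cannot be told apart.

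**Figure D3:**
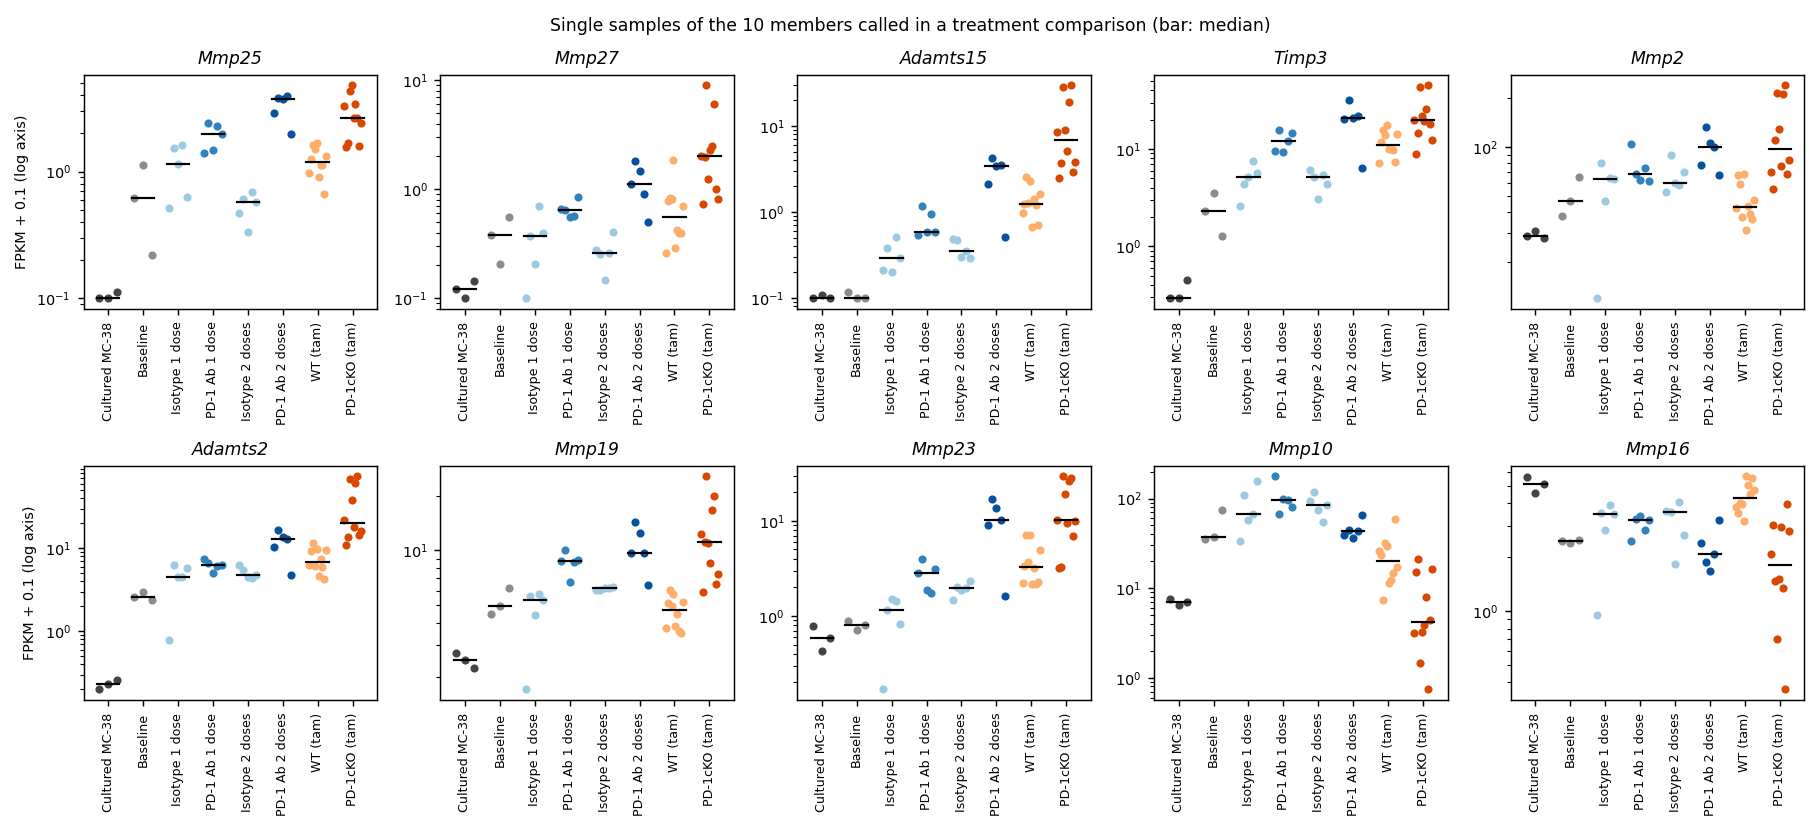
Each point is 1 sample, as FPKM + 0.1 on a log axis, for the 10 members called in at least 1 treatment comparison, with bars at group medians (tam: tamoxifen). All 5 PD-1 Ab-treated tumors after 2 doses lie above their isotype controls for Mmp25, Mmp27, Adamts15 and Timp3, with tumor 5 lowest, and PD-1cKO tumors spread more widely than WT tumors.

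After 1 dose, 0 of 31 members were called with limma against isotype control, as were 0 of all 14556 genes (percent called 0), while 9 members and 895 genes had an unadjusted p under 0.05. All 9 of these members were higher, but the direction of the 895 genes is not given here, and the median over all genes was also shifted upward (below). Of the 31 members, 4 passed the filter only through the PD-1 Ab-treated tumors (Mmp8, Mmp27, Adamts15 and Adamts16). Mmp13, which cleaves fibrillar collagen, read 125, 79.9, 84.5, 115 and 108 FPKM in PD-1 Ab-treated tumors and 28.0, 60.7, 40.2, 51.6 and 51.9 FPKM in isotype controls, without overlap (1.17 ± 0.24, adjusted p = 0.177 by limma). Timp3 read 9.48, 15.8, 9.20, 12.1 and 14.5 FPKM against 2.47, 4.23, 5.00, 7.47 and 5.52 FPKM, also without overlap (1.34 ± 0.30, adjusted p = 0.233 by limma). Mmp12 read 112, 41.5, 57.3, 107 and 84.1 FPKM against 12.5, 41.2, 17.2, 32.1 and 50.3 FPKM (1.48 ± 0.41, adjusted p = 0.366 by limma), and 1 treated tumor lay within the range of the controls. The median log2 difference over all genes was 0.26, and median-of-ratios scaling moved it to 0.01, with the mitochondrial isotype control tumor 1 in the control group. Without that tumor the median was -0.04 over all genes and 0.15 over the 31 members (0.65 with it). Then 0 members and 7 genes were called, and 9 members and 2472 genes had an unadjusted p under 0.05 by limma. The difference of the PD-1 Ab effect between 2 doses and 1 dose was itself tested over the 4 groups. With limma 0 of 32 members passed, as did 0 of all 15289 tested genes. At an unadjusted p under 0.05 by limma there were 4 members, and the share over all genes at that limit is not given here. Mmp25 gave a difference of 1.68 ± 0.47 on the log2 scale (adjusted p = 0.623 by limma), and Mmp10 -1.30 ± 0.46.

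In tamoxifen-treated mice, 7 members rose and 2 fell in PD-1cKO against WT tumors, of 32 tested, where 8.07% of all 15075 tested genes were called (4.20% higher and 3.87% lower). The members that rose were Adamts15, Adamts2, Mmp27, Mmp23, Mmp19, Mmp2 and Mmp25, and those that fell were Mmp10 and Mmp16. The median log2 difference was 0.46 over the 32 members and -0.20 over all tested genes, which median-of-ratios scaling moved to -0.04. The near-even split over all genes held without rescaling. With median-of-ratios scaling 8.29% of genes were called (933 higher and 317 lower), and with upper-quartile scaling 8.18% (936 higher and 297 lower). With either scaling 12 members were called, 10 higher and 2 lower, adding Adamts10, Mmp12 and Timp3.

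Among the proteoglycan-cleaving genes, Adamts15 read 2.39 to 29.8 FPKM (median 6.72) in PD-1cKO tumors and 0.566 to 2.47 FPKM (median 1.16) in WT tumors. In 9 of 10 PD-1cKO tumors it was above every WT tumor (2.57 ± 0.43, adjusted p = 0.00073 by limma). Its relatives Adamts1 (-0.06 ± 0.13), Adamts5 (0.37 ± 0.22) and Adamts4 (-0.42 ± 0.20) did not pass, and Adamts9 was lower by less than 2-fold (-0.76 ± 0.21, adjusted p = 0.00872 by limma).

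The procollagen N-propeptidase Adamts2 (chr11:50602084-50807573) read 10.8 to 73.0 FPKM (median 19.8) in PD-1cKO tumors against 4.17 to 11.5 FPKM (median 6.73) in WT tumors, with 9 of 10 above every WT tumor (1.88 ± 0.34, adjusted p = 0.00083 by limma). The other N-propeptidase with measurable levels, Adamts14, differed by -0.20 ± 0.22 (adjusted p = 0.473 by limma). Of 14 matrix substrate genes tested, 5 rose: Col1a2 (1.94 ± 0.33), Col1a1 (1.68 ± 0.28), Col3a1 (1.48 ± 0.29), the basement membrane protein Nid1 (1.47 ± 0.34) and Vwf (1.07 ± 0.25). Of 10 activators and regulators and of 9 AP-1 and ETS factors, 0 were called with limma, among them the urokinase gene Plau (0.78 ± 0.21, under 2-fold) and Fosl1 (-0.92 ± 0.61). After 2 doses of PD-1 Ab, none of 13 substrates, 10 regulators or 9 AP-1 and ETS factors passed.

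Mmp2 (chr8:92827291-92853420), a gelatinase also expressed in cultured MC-38 (29.0 FPKM), read 55.2 to 238 FPKM (median 97.0) in PD-1cKO tumors. In WT tumors it read 31.3 to 68.8 FPKM (median 43.1), with 8 of 10 PD-1cKO tumors above every WT tumor (1.27 ± 0.25, adjusted p = 0.00157 by limma). The other gelatinase, Mmp9, read 10.9 to 117 FPKM (median 96.2) against 71.2 to 132 FPKM (median 97.9) and was not called (-0.55 ± 0.35). Its 2 lowest PD-1cKO values, 20.9 and 10.9 FPKM, came from tumors 4 and 8, where Mmp2 read 212 and 238 FPKM. Mmp14 was higher by less than 2-fold (131 ± 34 against 82.3 ± 10 FPKM, 0.64 ± 0.13, adjusted p = 0.00177 by limma), as was its partner Timp2 (82.8 ± 35 against 48.3 ± 7.0 FPKM, 0.69 ± 0.18, adjusted p = 0.00607 by limma).

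The remaining genes that rose are less well characterized. Mmp19 (chr10:128790910-128800824) read 5.76 to 25.4 FPKM (median 11.0) against 3.39 to 5.96 FPKM (median 4.58), with 9 of 10 PD-1cKO tumors above every WT tumor (1.31 ± 0.23, adjusted p = 0.00079 by limma). Mmp23 (chr4:155650655-155653384) read 3.12 to 29.2 FPKM (median 10.0) against 2.08 to 7.02 FPKM (median 3.17), with 7 of 10 above (1.69 ± 0.40, adjusted p = 0.00344 by limma). Mmp25 read 1.46 to 4.71 FPKM (median 2.55) against 0.560 to 1.57 FPKM (median 1.09), also with 7 of 10 above (1.17 ± 0.22, adjusted p = 0.00124 by limma). Mmp27 overlapped more, at 0.623 to 8.89 FPKM (median 1.89) against 0.161 to 1.75 FPKM (median 0.461), and 6 of 10 were above every WT tumor (1.80 ± 0.43, adjusted p = 0.00399 by limma).

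The stromelysin Mmp10 read 0.640 to 21.2 FPKM (median 4.06) in PD-1cKO tumors against 7.31 to 59.7 FPKM (median 20.0) in WT tumors, with 6 of 10 below every WT tumor (-2.01 ± 0.52, adjusted p = 0.00546 by limma). Its neighbor Mmp3 did not follow (0.33 ± 0.41), reading 57.2, 51.0 and 60.7 FPKM in PD-1cKO tumors 4, 7 and 8 and 10.2 to 24.9 FPKM in the other 7. In tumors 4 and 8, Mmp10 was lowest, at 1.36 and 0.640 FPKM. Mmp16 (chr4:17852893-18119145), a membrane-type metalloproteinase expressed in cultured MC-38 (5.01 FPKM), read 0.266 to 3.86 FPKM (median 1.70) against 3.08 to 5.55 FPKM (median 4.18), with 9 of 10 below every WT tumor (-1.39 ± 0.32, adjusted p = 0.00342 by limma). Its lowest values, 0.266 and 0.596 FPKM, were those of tumors 8 and 4. Among the inhibitors, Timp3 read 8.85 to 45.2 FPKM (median 19.6) against 7.13 to 17.4 FPKM (median 10.8) and was just short of the call (0.86 ± 0.25, adjusted p = 0.0113 by limma), and Timp1 differed by -0.33 ± 0.13.

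**Figure D4:**
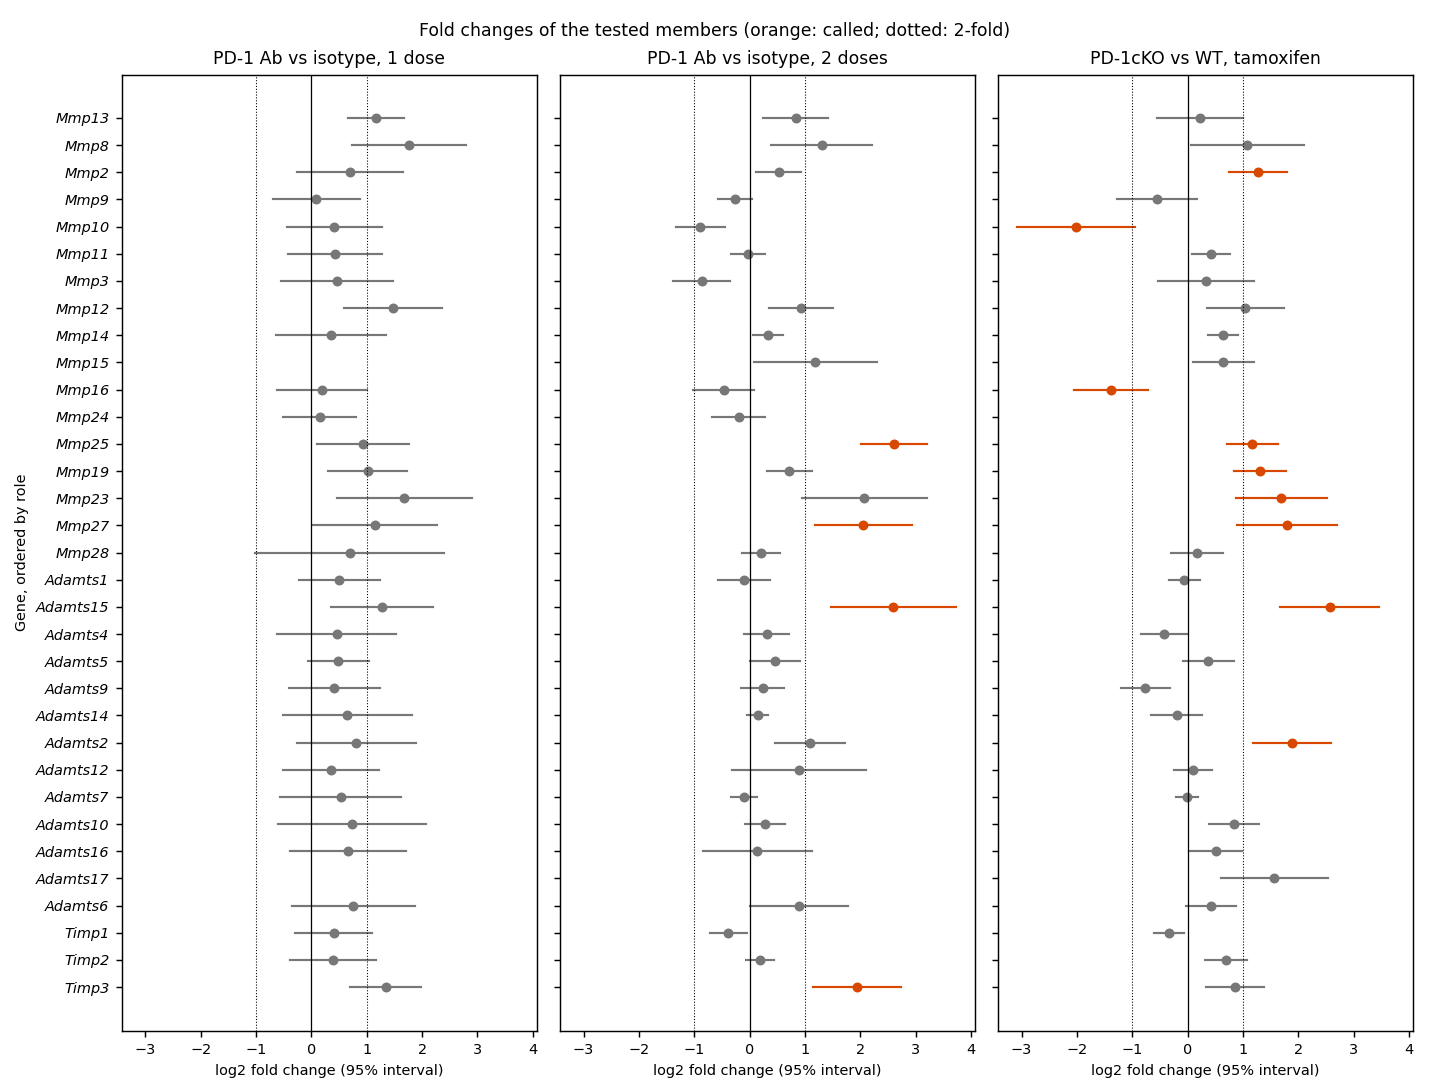
Log2 fold change with its 95% interval for the members tested in the 3 treatment comparisons, on log2(FPKM + 0.1), with called members in orange and dotted lines at 2-fold. Mmp25, Mmp27 and Adamts15 are called in both the 2-dose and the PD-1cKO panel, Timp3 is called only in the former, and the intervals after 1 dose are wide. In the 2-dose panel Mmp25, Mmp27 and Adamts15 passed the filter only through the PD-1 Ab-treated tumors, and of these only Mmp25 was called with no filter.

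Neutrophil markers rose for 5 of 7 genes tested, macrophage markers for 4 of 7, fibroblast markers for 3 of 8 and T cell markers for 5 of 5 in PD-1cKO tumors. The fibroblast list shares Col1a1 and Col3a1 with the substrates. Fibroblast sums ranged from 1712 to 9019 FPKM in PD-1cKO and from 892 to 1744 FPKM in WT tumors, macrophage sums from 1341 to 4553 and from 935 to 1566 FPKM, and neutrophil sums from 8.30 to 431 and from 4.62 to 15.0 FPKM. The part of these cells in the members' differences was not tested. Without PD-1cKO tumors 4, 7 and 8, a choice made after seeing the data, 3 members were called: Adamts15 (1.82), Adamts2 (1.31) and Mmp25 (1.01). Mmp19 (0.93), Mmp2 (0.84) and Mmp16 (-0.85) then stayed past the adjusted p but under 2-fold, and Mmp27 (1.21), Mmp23 (1.13) and Mmp10 (-1.47) no longer passed the adjusted p. The tumors also fell into 3 runs of consecutive sample identifiers, of which the first held 7 PD-1cKO tumors and no WT tumor, the second 1 PD-1cKO and 9 WT tumors, and the third 2 and 1. With the runs as a covariate, 0 of 32 members and 0 genes in all were called by limma. At an unadjusted p under 0.05 by limma there were 20 members of 32, and 6533 of all 15075 genes. The log2 change was larger for 8 of the 9 members called without the covariate, among them Adamts15 (3.07), Adamts2 (2.25) and Mmp10 (-3.16). For Mmp25 it was smaller, at 0.93 (adjusted p = 0.0886 by limma). Within the run of 7 PD-1cKO tumors no comparison was possible, so the run-adjusted changes rest on the other runs. In the run with 9 WT tumors the only PD-1cKO tumor was tumor 8, which is among the tumors left out above. The remaining run held 2 PD-1cKO tumors and 1 WT tumor. Both runs held too few tumors of 1 group for a test. Whether the larger changes hold without tumor 8 was not tested. What the runs stand for is not stated.

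Single tumors were used to relate members to marker lists, where the list score was the mean log2(FPKM + 0.1) of its genes. Fibroblast markers were also present in cultured MC-38, so the fibroblast score does not separate host fibroblasts from tumor cells. In all, 20 relations were computed, 10 in each genotype, with 2-sided permutation tests (100000 resamples) and p-values adjusted over the 20. In the 10 WT tumors, Mmp2 followed the fibroblast score (Pearson r = 0.92, adjusted p = 0.00072, and Spearman rho = 0.93, adjusted p = 0.00195, by permutation), and r was 0.85 without the 2 tumors farthest from the median score. Adamts2 did likewise (r = 0.92, adjusted p = 0.00137, rho = 0.95, adjusted p = 0.0017, by permutation, and r = 0.91 without the 2 tumors). Timp3 (r = 0.73, adjusted p = 0.0374, rho = 0.77, adjusted p = 0.0254, by permutation, and r = 0.66 without 2) and Adamts5 (r = 0.73, adjusted p = 0.0374, rho = 0.76, adjusted p = 0.0277, and r = 0.54 without 2) were weaker, and Timp2 did not pass (r = 0.62, adjusted p = 0.0744, rho = 0.50, adjusted p = 0.181, by permutation). Mmp12, named for macrophages, followed the macrophage score in WT tumors (r = 0.89, adjusted p = 0.00286, rho = 0.79, adjusted p = 0.0188, by permutation, and r = 0.86 without 2), whereas Mmp14 did not (r = 0.28, adjusted p = 0.466, rho = 0.19, adjusted p = 0.604, by permutation). In PD-1cKO tumors the order was the other way, with r = 0.86 for Mmp14 (adjusted p = 0.00357, rho = 0.84, adjusted p = 0.00955, by permutation, and r = 0.83 without 2) and r = 0.50 for Mmp12 (adjusted p = 0.153, rho = 0.41, adjusted p = 0.274, by permutation). The difference between genotypes was not tested. For Mmp14, r within the 7 PD-1cKO tumors other than 4, 7 and 8 was 0.57 (adjusted p = 0.243 by an exact permutation test).

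PD-1cKO tumors 4, 7 and 8 formed a separate cluster on the fibroblast score, and they had the highest neutrophil sums, with tumor 7 apart from the rest, so no pooled r is given for these lists in PD-1cKO tumors. Among the other 7, r with the fibroblast score was 0.80 for Mmp2 and 0.90 for Adamts2, with adjusted p = 0.0646 for each by an exact permutation test (rho = 0.54 and 0.61). Both rested on the 2 tumors farthest from the median score, without which r was -0.13 and -0.15. Adamts5 (r = 0.67, adjusted p = 0.114, rho = 0.86, adjusted p = 0.068, by an exact permutation test) and Timp3 (r = 0.75, adjusted p = 0.114, rho = 0.79, adjusted p = 0.107, by an exact permutation test) also did not pass, but without the 2 tumors their r was 0.92 and 0.50. Timp2 had r = 0.19, and -0.56 without the 2 tumors. Of the neutrophil pairs in WT tumors, Mmp8 (r = 0.66, adjusted p = 0.058, rho = 0.48, adjusted p = 0.196) and Mmp25 (r = 0.21, adjusted p = 0.556, rho = 0.25, adjusted p = 0.518) did not pass by permutation, and Mmp9 passed on ranks alone (r = 0.60, adjusted p = 0.0942, rho = 0.73, adjusted p = 0.0303, by permutation). Among the 7 PD-1cKO tumors other than 4, 7 and 8, Mmp9 had the opposite sign and did not pass (r = -0.63, adjusted p = 0.147, rho = -0.79, adjusted p = 0.107, by an exact permutation test), and the difference between genotypes was not tested. In tumor 7, whose neutrophil sum of 431 FPKM was the highest, the neutrophil collagenase Mmp8 was also at its highest, 7.11 FPKM, against 0.106 to 2.43 FPKM in the other 9 PD-1cKO tumors. Mmp9, which neutrophils also store, read 90.9 FPKM there, within the WT range, and 20.9 and 10.9 FPKM in tumors 4 and 8.

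**Figure D5:**
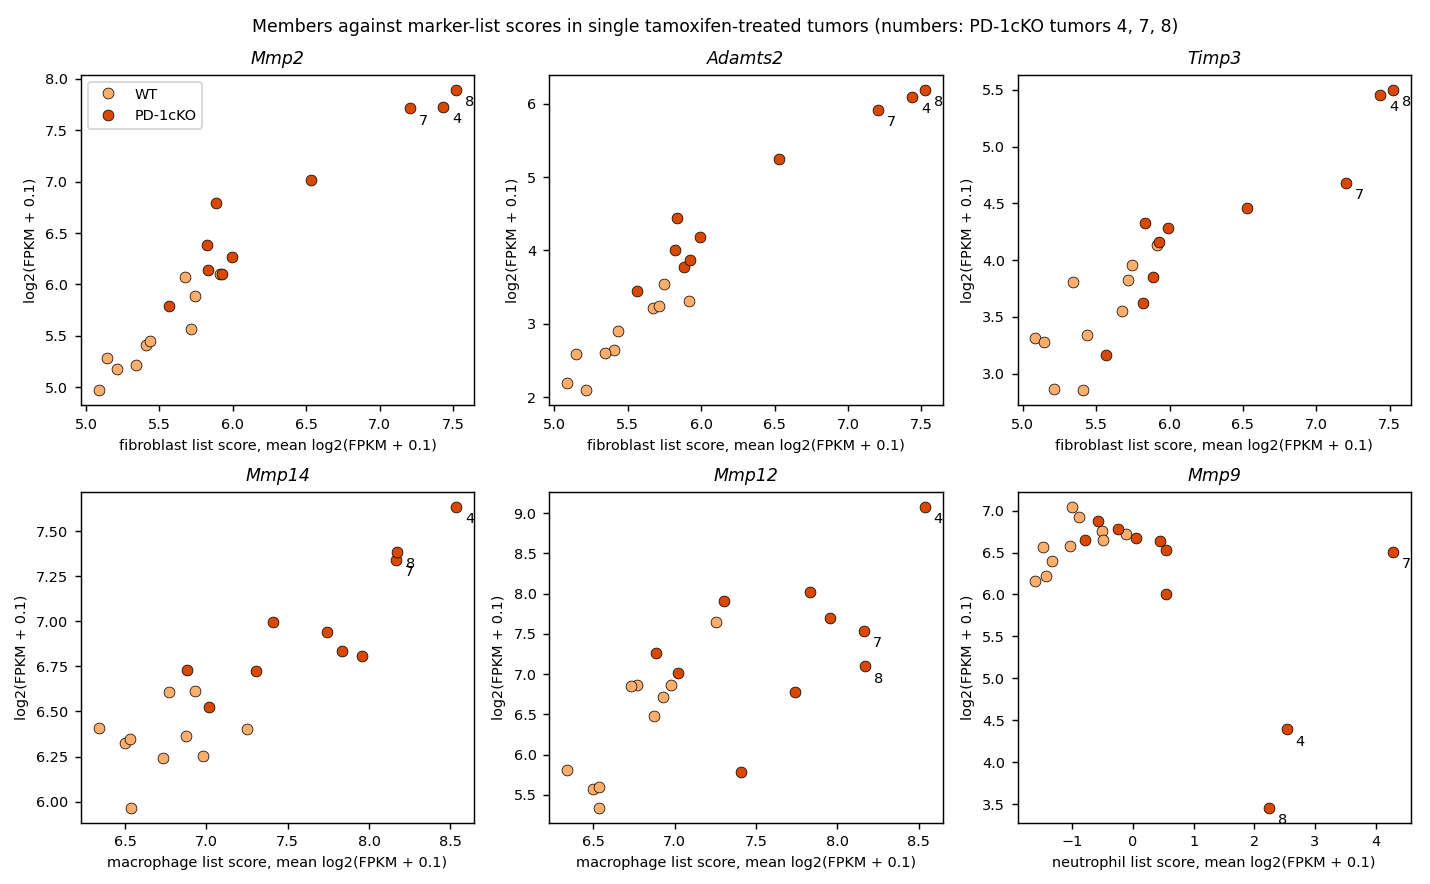
Each point is 1 tamoxifen-treated tumor, with the marker-list score on the x axis and the member's log2(FPKM + 0.1) on the y axis, for WT (light) and PD-1cKO (dark) tumors. PD-1cKO tumors 4, 7 and 8 sit at the upper right for Mmp2, Adamts2 and Timp3, and tumors 4 and 8 lie far below the rest for Mmp9.

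Side by side, the log2 changes after 2 doses of PD-1 Ab and in PD-1cKO tumors were 2.60 and 2.57 for Adamts15, 2.06 and 1.80 for Mmp27, 2.08 and 1.69 for Mmp23, 2.61 and 1.17 for Mmp25, and 1.94 and 0.86 for Timp3. The matching pairs were 1.09 and 1.88 for Adamts2, 0.52 and 1.27 for Mmp2, 0.72 and 1.31 for Mmp19, -0.89 and -2.01 for Mmp10, and -0.47 and -1.39 for Mmp16. These 2 comparisons share no samples. The difference between the models was tested as a contrast over the 4 groups, and 0 of 33 members passed with limma, where 0.0975% of all 16404 tested genes passed. At an unadjusted p under 0.05 by limma there were 4 members, and the share over all genes at that limit is not given here. Mmp25 came nearest (1.44 ± 0.37, 95% interval 0.68 to 2.19, adjusted p = 0.0632 by limma). For Adamts15 the difference was 0.03 with a 95% interval of -1.49 to 1.55, so differences of more than 2-fold in either direction lay within the interval.

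Levels also differed between the 2 studies. Mmp9 had means of 267 to 317 FPKM in the 5 groups of tumors from the antibody study and of 80.9 and 98.7 FPKM in PD-1cKO and WT tumors. Mmp24, a membrane-type metalloproteinase known from neurons, read 2.41 to 2.71 FPKM in the cultures and 0.790 to 3.86 FPKM in every tumor of the antibody study, but was listed at 0 in 16 of the 20 tamoxifen-treated tumors and reached at most 0.0177 FPKM in the other 4. It was 1 of 134 genes, among 11307 that averaged 1 FPKM or more in each of the 6 other groups, whose means were under 0.02 FPKM in both tamoxifen-treated groups. The paper's methods name a single version of the gene models for its RNA-seq and mention no other. Why these genes were listed near 0 together was not tested, so a listed 0 for Mmp24 cannot be read as absence of expression. Tamoxifen, mouse genotype, sampling day and any difference in handling between the studies cannot be told apart here, for Mmp24 or for Mmp9, and no fold is given.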

How the data were processed

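Bulk RNA-seq of 46 mouse samples was used. Ribosome-depleted, strand-specific total RNA libraries were sequenced as paired reads of 50 bases, and the authors aligned them to the mouse B38 genome with the Omicsoft aligner (at most 2 mismatches), with Ensembl gene models, and deposited gene-level FPKM values. The authors' own DESeq2 test used counts, which were not used here. The depth of each sample is unknown, so no counting interval is given and precision rests on the number of samples.

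Gene identifiers were matched to the GRCm38 annotation (48349 of 48795, 99.1%). Differences were tested with limma 3.58.1 in R 4.3.3 on log2(FPKM + 0.1), with a mean-variance trend and Benjamini-Hochberg adjustment over all genes that averaged 0.5 FPKM or more in 1 of the groups compared. Calls needed an adjusted p below 0.01 together with a 2-fold or larger difference, and for differences between effects the adjusted p alone. A fold change on this scale understates the change of low genes. Errors after ± are SE for log2 changes and SD for means. Each comparison used only its own groups. The isotype control tumors after 2 doses entered 3 comparisons, and the 3 cultures entered 2. The scripts were tested on simulated data. Relations to marker lists used permutation tests (100000 resamples, exact with fewer than 10 tumors), computed with Python 3.11.15 and numpy 2.4.6.

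Members called in any of the 3 treatment comparisons were named with full statistics, other members averaging 0.5 FPKM or more in any of the 8 groups with values, and the rest by their highest group mean. The members, the gene lists and the tests were chosen with earlier results of these data known. Alternatives covered the pseudocount, the filter, the scaling, the variance trend, a fit over all 8 groups, a replicate block and leaving out single samples. Promoter windows came from the RefSeq table for GRCm38.p6, which matched 31 of 45 members.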

Additional observations from a re-analysis of the deposited data

Results flagged for a closer look

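Of 60 sets tested (10 members in the groups of 4 to 10 samples), 7 held a sample that stood apart from the rest of its group by Dixon's test on the log2 scale. Chance alone flags about 1 set in 20, but the sets share tumors and are not separate trials, so their count cannot be set against that rate. Only 2 tumors gave all 7 flagged sets. In the isotype control group after 1 dose, tumor 1 was the low sample in 5 of them, with Adamts2 at 0.682 FPKM (others 4.34 to 6.09), Mmp16 at 0.849 FPKM (2.75 to 3.83), Mmp19 at 1.61 FPKM (4.31 to 5.62), Mmp2 at 11.9 FPKM (46.9 to 79.7) and Mmp23 at 0.0684 FPKM (0.730 to 1.42). In the same tumor 54.6% of the FPKM lay in mitochondrial genes, and its part in these values was not tested. In the PD-1 Ab group after 2 doses, tumor 5 was the low sample in the other 2, with Mmp23 at 1.5 FPKM (others 9.01 to 16.8) and Timp3 at 6.32 FPKM (20.1 to 32), beside the lowest sums of the group in 7 of the 9 marker lists (T cell, adipose, endothelial, macrophage, fibroblast, neutrophil and epithelial) and the highest in skeletal muscle markers. The part of these in the 2 values was not tested.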

How the results depend on the processing

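The depth of each sample is unknown, and the 3 to 10 samples in each group limit the precision. For PD-1 Ab against isotype control after 2 doses (4 members called), 1 member was called with no filter, and leaving out single tumors gave 1 to 9. Over all genes this comparison called 799, against 450 with no filter and 1534 without PD-1 Ab-treated tumor 5. For PD-1cKO against WT (9 members), 0 were called with runs of sample identifiers as a covariate and 3 without PD-1cKO tumors 4, 7 and 8, a setting chosen after seeing the data, while leaving out single tumors gave 8 to 10. Over all genes the counts were 1217, against 617 with a pseudocount of 1 FPKM, 240 without the 3 tumors and 0 with the runs. Of the settings run, 31 for PD-1cKO and 19 for 2 doses, Mmp10 was called in 23 and Mmp16 in 28 of the former, and Timp3 in 12, Adamts15 in 8 and Mmp27 in 8 of the latter. For isotype control tumors against baseline tumors (0 members), 1 was called with a pseudocount of 1 FPKM, 1 with a filter at 1 FPKM, 2 without the variance trend, 1 with all 8 groups in 1 fit, and 0 to 1 without single samples. Against the cultures, 11 to 20 members were called in isotype control tumors and 10 to 16 in baseline tumors. No member was called after 1 dose or for either difference between effects under any setting run. Of 20 relations to marker lists, 12 passed with all tumors, 5 in WT and 7 in PD-1cKO tumors, and 6 of the latter are the pooled fibroblast and neutrophil relations not given above because of the separate cluster. Without PD-1cKO tumors 4, 7 and 8, 3 passed, all in WT, where Adamts5 and Timp3 went to an adjusted p of 0.0646 by permutation on unchanged WT values, since the adjustment runs over all 20. Only Mmp16 after 1 dose changed direction among the named members, from 0.19 on the log2 scale to -0.0478 with median-of-ratios scaling, -0.0403 with upper-quartile scaling and -0.1799 without isotype control tumor 1, and leaving out single tumors gave -0.1799 to 0.3325. Except where samples were left out, the cause was not tested.

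Groups share replicate numbers, but same-numbered tumors did not deviate together (correlations from -0.209 to 0.16, with 1 of 20 tumors closest to its own number), so the numbers do not pair them. With the replicate block, 2 members (Mmp25 and Timp3) and 316 genes were called after 2 doses, 7 members and 891 genes in PD-1cKO tumors (9 and 1217 without it), and 0 genes in isotype control against baseline tumors, against 89 without the block.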
